A study of Homo sapiens with 6 samples.

Results

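The 9 genes of the canonical Notch receptors and ligands, NOTCH1, NOTCH2, NOTCH3, NOTCH4, DLL1, DLL3, DLL4, JAG1 and JAG2, were examined for TLE3 binding in the breast cancer line MDA-MB-453. Peaks of 4 chromatin immunoprecipitation libraries that shared at least 1 bp were merged into regions, and each region was given to the protein-coding gene whose span it overlapped or, failing that, to the nearest one within 100 kb. Of 72272 merged regions, 68 went to the 9 genes, which are 9 of 20033 protein-coding genes. The genes were taken as a family and not by a cut on a measured value, but with earlier results of these data known.

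All 4 libraries came from immunoprecipitation with a TLE3 antibody, after fixation with formaldehyde and a second cross-linker. FOXA1 was silenced transiently in 2 of them (siFOXA1 1 and siFOXA1 2). The other 2 (siNS 1 and siNS 2) are the silencing controls, and their si label does not mark them as untreated cells. The study asked how far TLE3 binding requires FOXA1. Peaks numbered 45109 in siNS 1, 46589 in siNS 2, 12253 in siFOXA1 1 and 13763 in siFOXA1 2. A peak carried a position on hg38 and a score set by the authors, whose definition is not stated. Read counts are not part of the lists and the depth is unknown, and neither FOXA1 silencing nor the cells' identity could be checked against marker levels. The libraries are labelled as biological replicates of 1 cell line. With 2 libraries against 2, a two-sided exact permutation test over 6 relabelings cannot give p below 0.333, so differences are described by the value in each library and no test was run.

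Notch receptors are membrane proteins that are cut after binding a Delta-like or Jagged ligand on a neighbouring cell. The freed intracellular part enters the nucleus and, with the DNA-binding protein RBPJ, turns on targets such as the HES repressors, which in turn recruit Groucho proteins. TLE3 is a Groucho corepressor that reaches DNA through other factors, and FOXA1 is a pioneer factor of luminal breast cells. In breast epithelium Notch signalling takes part in luminal cell fate.

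The promoter windows of these genes show where TLE3 was called and where it was not. RefSeq gives a window from 250 bp before to 50 bp after the start site (GRCh38.p14) for 7 of the 9 genes. In JAG2, NOTCH1, JAG1, DLL4, NOTCH2 and NOTCH3, a peak of both siNS libraries overlapped the window and no siFOXA1 peak did. The windows shown are JAG2, NOTCH1 and JAG1 as examples of these, and NOTCH4 because no peak of any library overlapped it. They run 5′ to 3′ on the minus strand, at chr14:105168727-105169026, chr9:136545999-136546298, chr20:10673950-10674249 and chr6:32224018-32224317 in that order. Capitals mark the GC box GGGCGG read on either strand and, in JAG2, the AP-2 motif GCCNNNGGC.
JAG2: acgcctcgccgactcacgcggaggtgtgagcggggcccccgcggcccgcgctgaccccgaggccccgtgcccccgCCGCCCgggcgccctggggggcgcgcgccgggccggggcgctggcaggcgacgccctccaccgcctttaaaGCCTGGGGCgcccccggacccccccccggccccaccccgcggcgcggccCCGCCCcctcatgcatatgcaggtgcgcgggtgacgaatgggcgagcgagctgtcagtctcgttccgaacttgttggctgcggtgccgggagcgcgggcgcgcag
NOTCH1: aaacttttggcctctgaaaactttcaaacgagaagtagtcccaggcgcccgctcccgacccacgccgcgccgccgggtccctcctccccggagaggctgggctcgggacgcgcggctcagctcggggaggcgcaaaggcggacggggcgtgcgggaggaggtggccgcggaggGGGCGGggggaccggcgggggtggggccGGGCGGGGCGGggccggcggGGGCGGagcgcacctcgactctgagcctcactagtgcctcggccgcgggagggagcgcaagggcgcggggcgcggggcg
JAG1: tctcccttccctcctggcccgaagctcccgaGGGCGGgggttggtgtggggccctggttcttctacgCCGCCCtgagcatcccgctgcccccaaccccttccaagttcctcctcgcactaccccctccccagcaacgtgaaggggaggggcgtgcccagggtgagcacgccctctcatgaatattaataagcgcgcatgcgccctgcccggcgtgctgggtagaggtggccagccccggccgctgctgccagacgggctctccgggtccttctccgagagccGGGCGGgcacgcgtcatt
NOTCH4: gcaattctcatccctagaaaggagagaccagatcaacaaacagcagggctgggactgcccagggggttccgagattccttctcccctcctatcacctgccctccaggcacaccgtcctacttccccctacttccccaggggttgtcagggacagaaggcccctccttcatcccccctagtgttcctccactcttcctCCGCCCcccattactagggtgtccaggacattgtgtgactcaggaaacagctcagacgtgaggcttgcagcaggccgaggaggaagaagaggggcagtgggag

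The covered windows held more CpG dinucleotides than the NOTCH4 window. JAG2 held 46 CpG, NOTCH1 42, NOTCH3 37, NOTCH2 33, DLL4 27 and JAG1 24, against 5 in NOTCH4. Over 15842 protein-coding genes with a window (the first listed per gene), the median was 22 CpG, with 29 where both siNS libraries had a peak and 9 elsewhere. DLL4 and JAG1 thus lay below the median of covered windows, and 46.0% of all windows held as many CpG as JAG1. The 7 windows all held a GC box, as did 58.5% of the 15842 windows and 78.7% of those with a peak of both siNS libraries. The AP-2 motif was found in JAG2 and NOTCH2, against 28.3% of all windows. The forkhead motifs TGTTTAC and TGTTTGC were in 2.61% and 3.16% of all windows, the RBPJ motif TGGGAA in 22.7%, the E-box CACGTG in 8.88%, the TCF/LEF motifs CTTTGAA and CTTTGAT in 3.64% and 1.94%, and the GATA motif AGATAA in 7.57%. None of these letters was found in the 7 windows, on either strand, which says nothing of the factors themselves. GC boxes can overlap each other, as 1 pair in NOTCH1 and 1 pair in NOTCH3 did.

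TLE3 regions at the receptor and ligand genes were far more numerous in the siNS than in the siFOXA1 libraries. There were 58 in siNS 1, 36 in siNS 2, 6 in siFOXA1 1 and 5 in siFOXA1 2. Both siNS libraries lay above both siFOXA1 libraries, and the gap was wider than the difference within either group. The means were 47.0 ± 15.6 in siNS and 5.50 ± 0.707 in siFOXA1 (SD, n = 2 each), a ratio of 8.55, beside 3.42 for all regions. With each list reduced to its 12249 best-scored peaks, the counts were 15 and 11 in siNS and 6 and 4 in siFOXA1, a ratio of 2.60. For all regions the ratio was 1.00, which the equal list length sets in advance. The siNS libraries differed from each other mainly at NOTCH1 and JAG2.

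**Figure D1:**
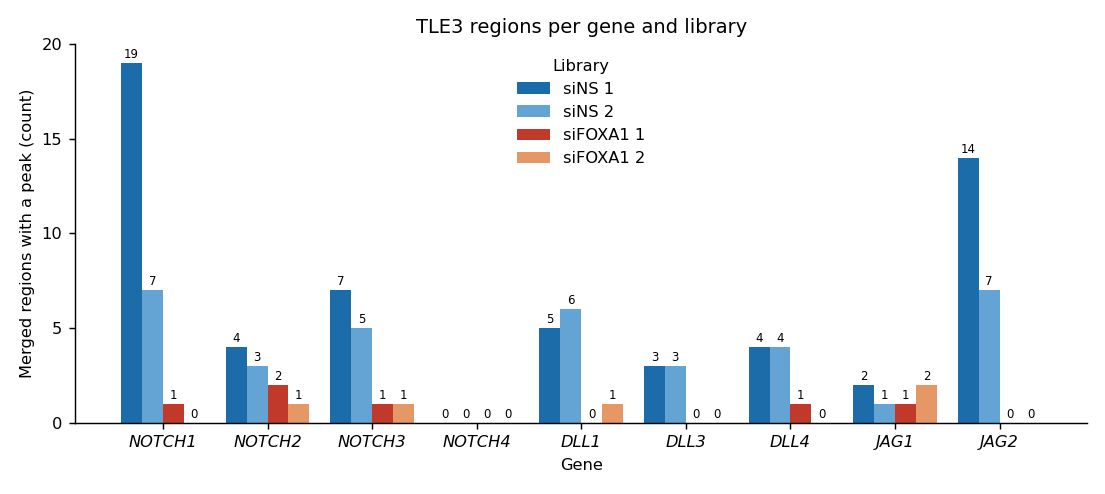
Number of merged TLE3 regions with a peak in each library, by gene. NOTCH1 and JAG2 have 19 and 14 regions in siNS 1 but 7 each in siNS 2, no gene has more than 2 in a siFOXA1 library, and NOTCH4 was assigned none in any.

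Of the 68 regions, 28 (41.2%) had a peak in both siNS libraries, against 34.5% of all merged regions. Another 30 (44.1%) were found in siNS 1 alone and 8 (11.8%) in siNS 2 alone, where the shares of all regions were 26% and 21.1%. Only 3 of the 68 had a peak in both siFOXA1 libraries, or 4.41% against 11.4% of all regions. A region of both siNS libraries was assigned to 8 of 9 genes, against 61.8% of protein-coding genes. The exception was NOTCH4, where a region inside the gene went to the overlapping gene GPSM3. A region of both siFOXA1 libraries was found at NOTCH2, NOTCH3 and JAG1, which is 3 of 9 genes against 19.4% of all. A peak of at least 1 siFOXA1 library was found at 6 of 9 genes, all but NOTCH4, DLL3 and JAG2, against 30.8% of all.

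The genes differed in how many regions they held and in how strong these were. By number, NOTCH1 came first with 22 regions, followed by JAG2 with 15 and NOTCH3 with 9, then NOTCH2 and DLL1 with 6 each, DLL4 with 4, DLL3 and JAG1 with 3 each and NOTCH4 with 0. As many regions as at NOTCH1 were assigned to 0.744% of protein-coding genes, and as many as at JAG2 to 2.43%. By the strongest peak, given here as the share of its list that scores at least as high (a region has the score of its best peak), JAG2 led in both siNS libraries (top 1.62% and top 2.62%) and NOTCH3 came next (2.13% and 4.11%). DLL4 (2.25% and 5.44%), NOTCH1 (4.80% and 6.75%), DLL1 (5.35% and 4.20%) and JAG1 (5.46% and 8.82%) followed. DLL1 ranked above DLL4 and NOTCH1 in siNS 2 but below both in siNS 1. Its values are those of a region 94743 bp from the gene, and its nearest region stood at 26.0% and 7.90%. DLL3 (11.0% and 37.4%) and NOTCH2 (37.0% and 25.1%) were the weakest genes with a peak, in an order that also changed between the siNS libraries.

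**Figure D2:**
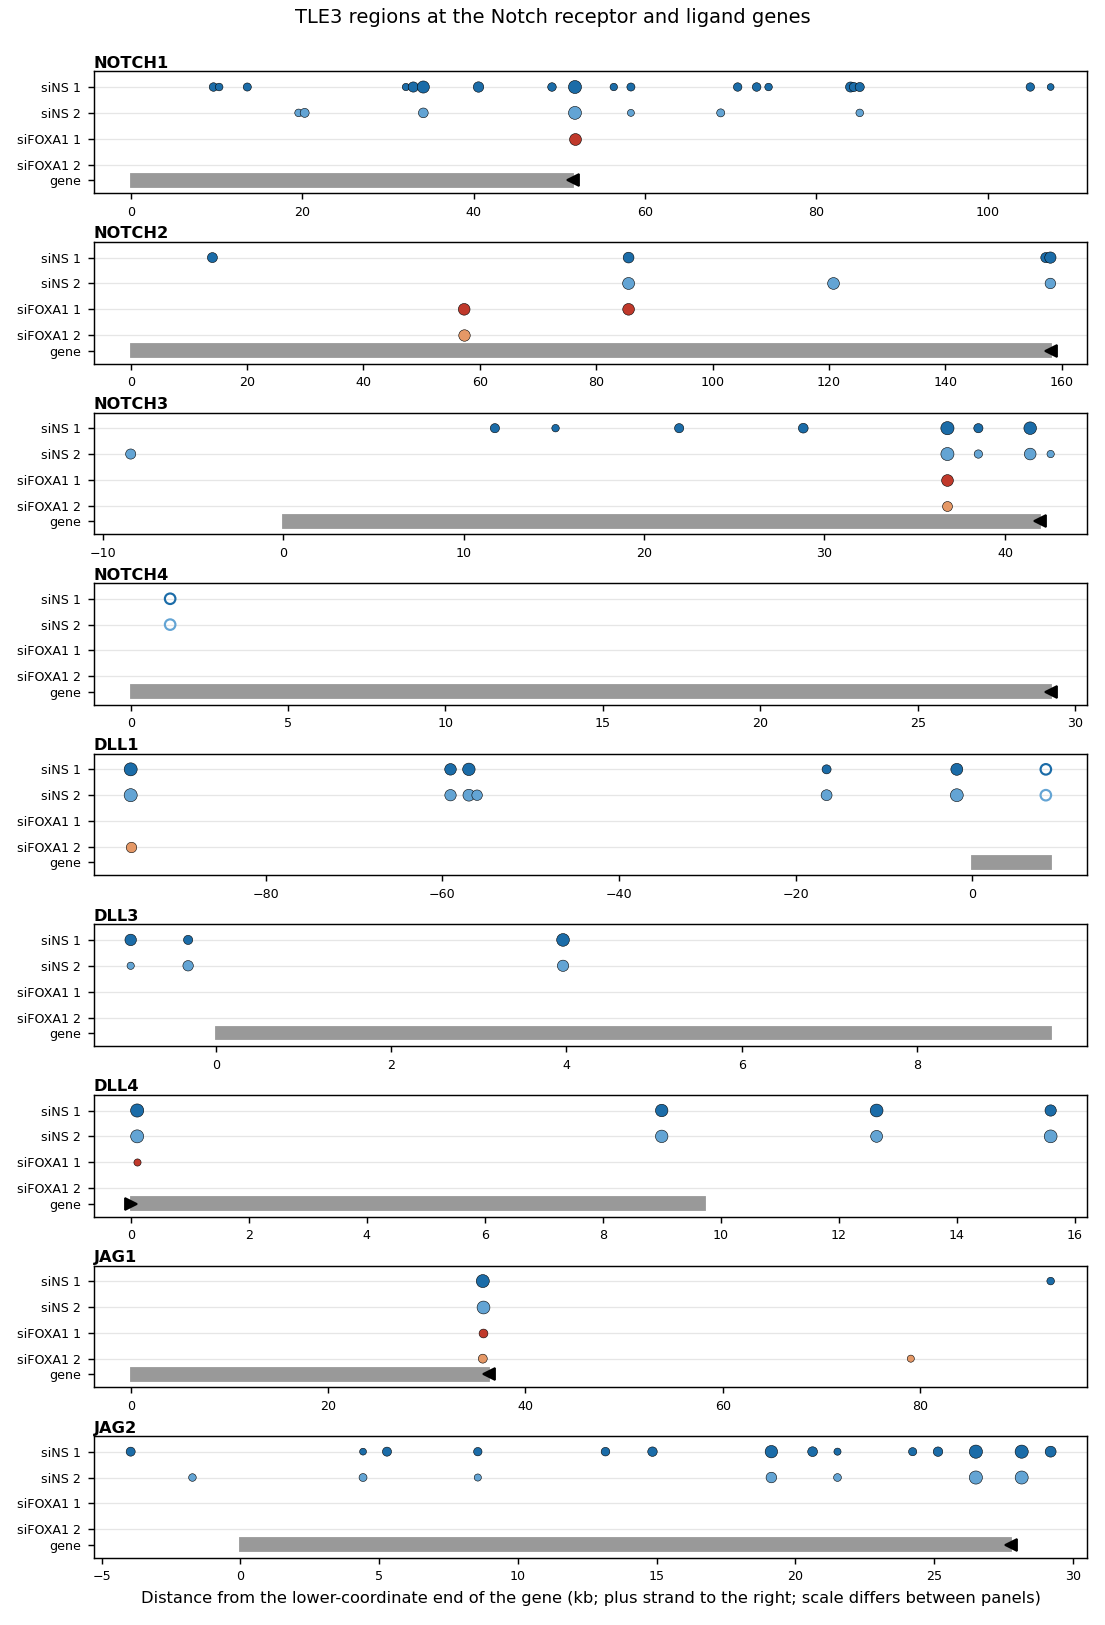
Centre of each TLE3 region along the 9 genes, in kb from the gene's lower-coordinate end, with a row per library. Larger filled points rank higher in their list, grey bars are gene spans, arrowheads mark RefSeq start sites where given, and open circles are the 2 regions that overlap NOTCH4 or DLL1 but were assigned to an overlapping gene.

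NOTCH1, the receptor most often studied in cancer, spans chr9:136494433-136546048 and lies 112.807 kb from its next gene upstream, EGFL7. Its dominant region was a broad one of 3954 bp over the start site, chr9:136544291-136548244, which also overlaps the long non-coding RNA gene NALT1 and MIR4674. It scored 87.1 in siNS 1 (top 4.80%), 69.4 in siNS 2 (top 6.75%) and 15.7 in siFOXA1 1 (top 26.9%), and siFOXA1 2 had no peak there. Its ranks in these 3 lists were 2165, 3147 and 3298. The siFOXA1 lists are shorter, so the same top percentage stands there for a better rank. Only 0.236% of regions of both siNS libraries were at least as wide.

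The other NOTCH1 regions were weaker and mostly seen once. A region inside the gene, 17070 bp from the start site, chr9:136528172-136528978, scored 28.6 in siNS 1 (top 22.5%) and 8.85 in siNS 2 (top 62.0%). In both siNS libraries there were also 2 regions upstream, chr9:136552534-136553055 with scores of 4.92 and 3.56 and chr9:136579225-136579758 with 6.22 and 4.87. Both lay in the lower part of each list, from top 71.2% to top 97.7%. Of the remaining 18 regions, 15 were in siNS 1 alone with scores of 2.97 to 9.61 and 3 in siNS 2 alone with scores of 4.90 to 7.04. They were spread over the gene body and the upstream interval up to 55594 bp from the gene.

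NOTCH2, spanning chr1:119911553-120069662, was the only gene of the 9 with a region of both siFOXA1 libraries and no siNS peak. That region, chr1:119968598-119969140, lay inside the gene, 100522 bp from its start site, and scored 14.4 in siFOXA1 1 (top 30.0%) and 14.3 in siFOXA1 2 (top 34.1%). It was 1 such region among the 68, where all 72272 regions held 3282. Regions with any siFOXA1 peak and no siNS peak were 2 of the 68 (2.94%), against 12.9% of all. Over the start site, chr1:120069311-120069922 scored 15.9 in siNS 1 (top 37.0%) and 12.0 in siNS 2 (top 49.9%), with no siFOXA1 peak. A region inside the gene, chr1:119996908-119997342, scored 11.3 in siNS 1 (top 46.3%), 25.3 in siNS 2 (top 25.1%) and 14.4 in siFOXA1 1 (top 30.2%). Its ranks in these lists were 20756, 11682 and 3696. Thus the start-site region was seen in siNS alone and the region 100522 bp into the gene in siFOXA1 alone. Its other 3 regions were in 1 siNS library each, with scores of 8.09 and 8.48 in siNS 1 and 22.2 in siNS 2.

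NOTCH3, a receptor known for its role in vascular smooth muscle and in luminal progenitors, spans chr19:15159038-15200995. Its strongest region lay inside the gene, 4508 bp from the start site, at chr19:15195213-15196487. It scored 133 in siNS 1 (top 2.13%), 95.5 in siNS 2 (top 4.11%), 14.7 in siFOXA1 1 (top 28.8%) and 8.65 in siFOXA1 2 (top 59.3%), so it was present in all 4 libraries and stood lower in the siFOXA1 lists. The region over the start site, chr19:15199545-15201328, scored 44.4 in siNS 1 (top 13.6%) and 21.1 in siNS 2 (top 30.0%) and had no siFOXA1 peak. The siNS 2 peak that overlapped the promoter window itself scored 10.6 (top 54.7%). A further region of both siNS libraries, chr19:15197385-15197745, was weak, with 6.44 and 5.91. The other 6 were in 1 siNS library each, 4 in siNS 1 with scores of 4.25 to 7.29 and 2 in siNS 2 with 4.37 and 10.2.

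NOTCH4, an endothelial receptor gene in the major histocompatibility complex (chr6:32194843-32224067), was assigned no region. Of protein-coding genes, 19.4% likewise were assigned none. Within 100 kb of it were 8 regions, all given to other genes in this gene-dense interval. One of them, chr6:32195471-32196722, lies wholly in the 3′ part of NOTCH4, 27345 bp from its start site. It shares 1252 bp with NOTCH4 and 53 bp with GPSM3, to which it was given because that gene's end is nearer to its centre. This region scored 21.7 in siNS 1 (top 29.3%) and 9.84 in siNS 2 (top 57.1%), with no siFOXA1 peak.

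DLL1, the first Delta-like ligand, is a short gene (chr6:170282206-170291078) whose assigned regions all lay outside it, on its lower-coordinate side. The farthest, 94743 bp away at chr6:170186349-170187463, was the strongest, with 81.9 in siNS 1 (top 5.35%), 94.0 in siNS 2 (top 4.20%) and 9.82 in siFOXA1 2 (top 51.4%). Nearest to the gene, 1187 bp from its end, chr6:170279887-170281019 scored 24.9 in siNS 1 (top 26.0%) and 62.7 in siNS 2 (top 7.90%). These were the only DLL1 regions in the top 10% of a siNS list, and 1 of them had a siFOXA1 peak.

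Between them, 3 more regions were shared by the siNS libraries. They were chr6:170222732-170223510 (19.1 and 17.7), chr6:170224600-170225804 (39.0 and 23.2) and chr6:170265392-170266023 (6.11 and 13.9), with the scores of siNS 1 and siNS 2 in that order and no siFOXA1 peak. The sixth region had 11.9 in siNS 2 alone. Just outside the 100 kb limit, 102748 bp away, chr6:170178427-170179458 scored 74.4 in siNS 1 and 97.0 in siNS 2, close to the values of the farthest region inside it. A region over the upper end of DLL1, chr6:170288922-170292147, shares 2157 bp with DLL1 and 1445 bp with FAM120B, to which it was given because that gene's end is nearer to its centre. Its best peaks scored 20.4 in siNS 1 (top 31.0%) and 9.15 in siNS 2 (top 60.7%), with no siFOXA1 peak.

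DLL3, a divergent Delta-like protein that acts inside the cell against Notch signalling (chr19:39498947-39508469), had 3 regions, each in both siNS libraries and neither siFOXA1 library. The one inside the gene, chr19:39502580-39503236, scored 52.1 in siNS 1 (top 11.0%) and 16.9 in siNS 2 (top 37.4%). At 61 bp from the gene's lower-coordinate end, chr19:39498377-39498886 scored 6.35 and 11.4, and at 763 bp, chr19:39497769-39498184 scored 17.9 and 4.30. The siNS libraries differed in which of the flanking regions was the stronger.

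DLL4, the Delta-like ligand of sprouting vessels (chr15:40929340-40939073), also had each of its 4 regions in both siNS libraries. A region of 3177 bp over the start site, chr15:40927862-40931038, scored 131 in siNS 1 (top 2.25%), 79.6 in siNS 2 (top 5.44%) and 3.90 in siFOXA1 1 (top 95.4%), which puts the last among the weakest peaks of its list. Near the 3′ end, chr15:40937791-40938885 scored 39.5 and 38.0 in siNS 1 and siNS 2. Downstream of the gene, chr15:40941112-40942848 scored 59.6 and 23.8 and chr15:40944424-40945434 scored 15.9 and 58.1. Neither siFOXA1 library had a peak in the last 3 regions.

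JAG1, a Jagged ligand expressed in many epithelia (chr20:10637684-10673999), had a single region of both siNS libraries, and it was found in all 4. This broad region of 3821 bp over the start site, chr20:10671450-10675270, scored 81.0 in siNS 1 (top 5.46%), 58.1 in siNS 2 (top 8.82%), 6.33 in siFOXA1 1 (top 75.2%) and 7.08 in siFOXA1 2 (top 73.8%). The siNS 2 score belongs to a peak 921 bp downstream of the start site, and the siNS 2 peak on the start site scored 44.1 (top 13.1%). The siFOXA1 peaks there were among the weaker ones of their lists. Upstream, 42588 bp away, a peak scored 4.20 in siFOXA1 2 alone, and at 56772 bp another scored 4.45 in siNS 1 alone. The first region beyond the 100 kb limit, 168133 bp away, scored 19.9 in siFOXA1 2 alone. The next, 187305 bp away at chr20:10861304-10862305, scored 45.4 in siFOXA1 1 and 104 in siFOXA1 2, with no siNS peak.

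JAG2, the second Jagged ligand (chr14:105140995-105168776), carried the best-scored region of the family in each siNS list and no siFOXA1 peak. Just inside the gene, chr14:105166515-105168490 scored 153 in siNS 1 (top 1.62%) and 122 in siNS 2 (top 2.62%). Over the start site, chr14:105168604-105169703 scored 125 in siNS 1 (top 2.45%) and 85.2 in siNS 2 (top 4.91%). Both ranked above every NOTCH1 region in the siNS lists. Deeper in the gene, chr14:105159803-105160460 scored 37.3 and 12.1 in siNS 1 and siNS 2.

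The other JAG2 regions of both siNS libraries were close to the bottom of the lists. They were chr14:105145242-105145587 (3.01 and 5.34), chr14:105149288-105149814 (5.30 and 4.02) and chr14:105162359-105162670 (3.56 and 5.12). The remaining 9 comprised 8 regions in siNS 1 alone, with scores of 5.04 to 12.3, and 1 in siNS 2 alone with 4.82. None of the 6 regions of both siNS libraries had a siFOXA1 peak, where 17% of all regions of both siNS libraries had one. A count of 0 of 6 allows a share of up to 50%, with 3 counts taken as the limit that a count of 0 allows. That limit includes the general share.

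Of the 28 regions of both siNS libraries, 6 had a siFOXA1 peak, 1 each at NOTCH1, NOTCH2, NOTCH3, DLL1, DLL4 and JAG1. This share of 21.4% (exact 95% binomial interval 8.30 to 41.0%, counting error only) lay close to the 17% of all 24967 such regions. By library it was 17.9% in siFOXA1 1 and 10.7% in siFOXA1 2, against 13.4% and 14% of all. The regions of NOTCH3 and JAG1 had a peak in both siFOXA1 libraries, 7.14% against 10.4%. With lists of equal length, 5 of 9 regions had a siFOXA1 peak (55.6%, 21.2 to 86.3%), beside 32.3% of all.

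The regions with a siFOXA1 peak were mostly the strongest in siNS. By their best peak in each library, 7 regions were among the top 10% of both siNS lists, 25.0% of the 28 against 10.5% of all regions of both siNS libraries. Of these 7, 5 had a siFOXA1 peak (71.4%, exact interval 29.0 to 96.3%), beside 56.7% of all regions that strong. Both exceptions were at JAG2. Within 1 kb of a gene end lay 5 of these 7. Of these 5, 3 had a siFOXA1 peak (60%, exact interval 14.7 to 94.7%), beside 39.8% of all regions so strong and so placed. Outside the top 10%, the region inside NOTCH2 was the only one of 21 with a siFOXA1 peak. Over all regions of both siNS libraries, 4235 of 24967 had one, among them 1489 of the 2625 in the top 10% of both lists. The share was thus lower outside the top 10% over all regions too.

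**Figure D3:**
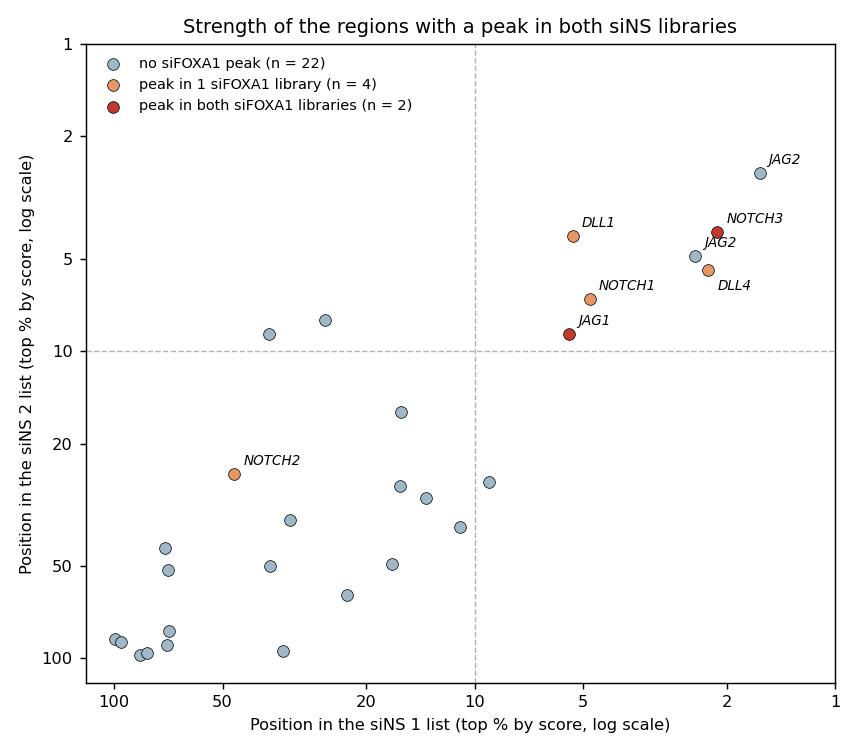
Position of the 28 regions with a peak in both siNS libraries in the siNS 1 and siNS 2 lists, as the top percentage by score on log axes with the strongest at the upper right. Dashed lines mark the top 10%, and 5 of the 7 regions in the upper right field have a siFOXA1 peak, the others being JAG2.

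A siFOXA1 peak within a start-site region did not lie on the start site itself. Within 1 kb of a gene end were 10 of the 28 regions (35.7% against 42.7% of all). Of these 10, 3 had a siFOXA1 peak (30%, exact interval 6.67 to 65.2%), against 6.28% of all regions so placed. They were the broad start-site regions of NOTCH1, DLL4 and JAG1, the only 3 of the 28 that were at least 3000 bp wide, a width chosen after the values were seen, where 0.981% of all regions of both siNS libraries were as wide. Of all 245 regions of both siNS libraries that wide, 37.1% had a siFOXA1 peak. The siNS peaks that covered these start sites were 2036 to 3941 bp wide. In siNS 2 the regions of DLL4 and JAG1 each held a second peak off the start site, of 379 and 1614 bp. At NOTCH1 the siFOXA1 1 peak was 428 bp wide and lay 734 bp upstream of the start site. At DLL4 it was 274 bp wide and 1076 bp downstream. At JAG1 the siFOXA1 1 and siFOXA1 2 peaks were 232 and 251 bp wide and lay 1596 and 1569 bp downstream, so both libraries had the peak at nearly the same place, within the siNS 2 peak of 1614 bp.

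**Figure D4:**
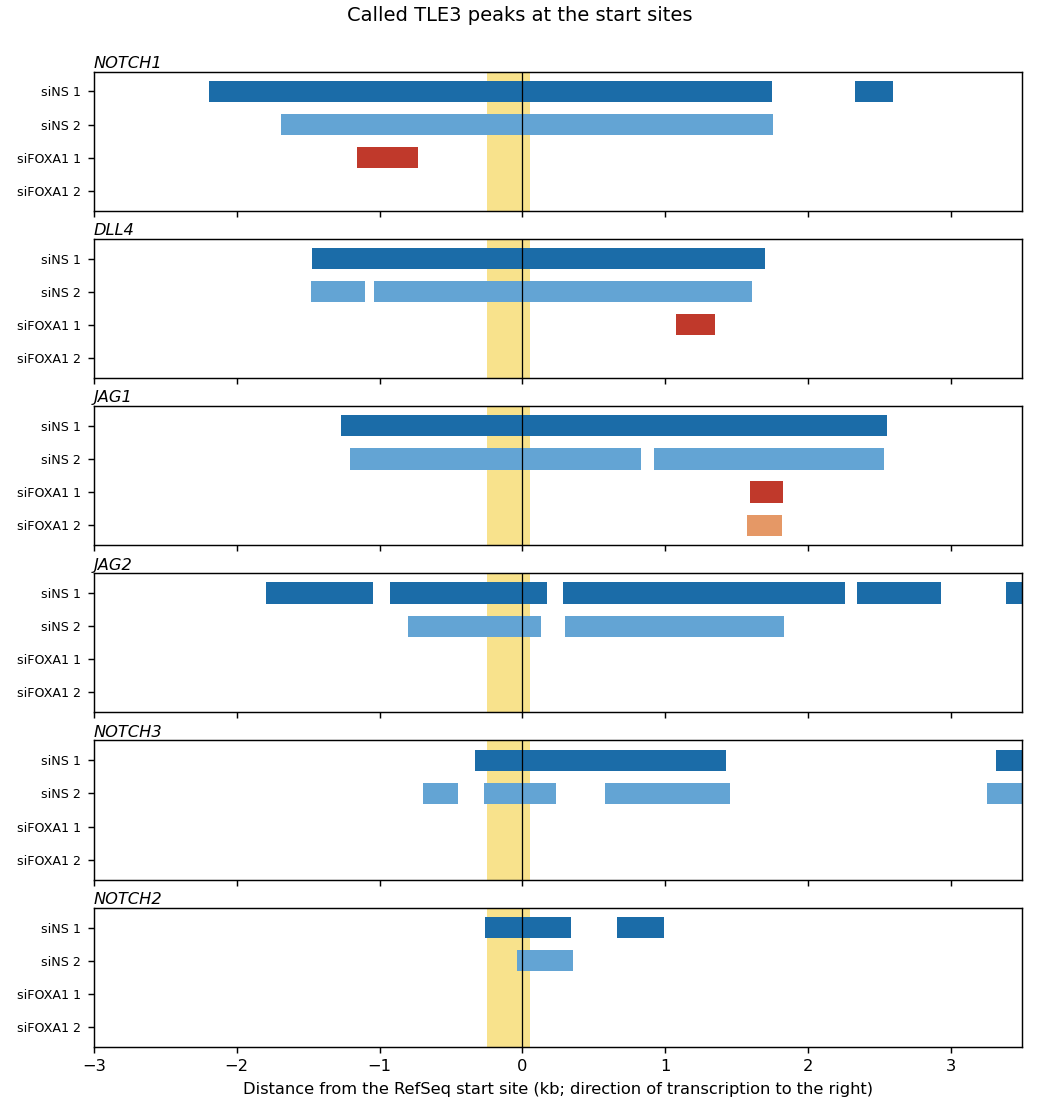
Called peaks of each library around the RefSeq start sites of 6 genes, in kb with transcription to the right. The shaded band is the promoter window, which siNS peaks overlap in all 6 genes and siFOXA1 peaks in none, since those of NOTCH1, DLL4 and JAG1 lie 734 to 1596 bp from the start site.

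The promoter windows themselves were overlapped by peaks of both siNS libraries in 6 of 7 genes with a window, against 49.2% of protein-coding genes. No siFOXA1 peak overlapped any of the 7, where 1.51% of windows over all genes had one. Of the 6 windows with both siNS libraries, 0 had a siFOXA1 peak, which allows up to 50% by the same limit of 3 counts, against 2.57% over all genes.

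The regions seen in 1 siNS library were mostly weak. Of these 38 regions, 36 lay in the lower-scoring part of their list, below the median (94.7%), against 83.7% of all regions found in 1 siNS library alone. The siNS 1 scores ranged from 2.97 to 12.3 and those of siNS 2 from 4.37 to 22.2. NOTCH1 and JAG2 held 15 and 8 of the 30 regions of siNS 1 alone.

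The genes most like NOTCH1 and JAG2 by the Euclidean distance between their numbers of regions in the 4 libraries, are given with those numbers, which chose them. Nearest to NOTCH1 were YTHDF1 (18, 7, 1 and 1 regions in siNS 1, siNS 2, siFOXA1 1 and siFOXA1 2), RHPN1 (18, 8, 1 and 1) and KIF26A (20, 8, 0 and 0). Nearest to JAG2 were ARVCF (14, 6, 0 and 0), RALGDS (14, 8, 0 and 1) and GALNT9 (13, 6, 0 and 0). Their distances were 1.41 to 1.73 for NOTCH1 and 1.00 to 1.41 for JAG2.

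The other genes of the pathway, a list of 46, gave shares near those of the receptors and ligands. A region of both siNS libraries was found at 37 of the 46 (80.4%, against 61.8% of protein-coding genes) and a region of both siFOXA1 libraries at 13 (28.3% against 19.4%). Of their 102 regions of both siNS libraries, 19 (18.6%) had a siFOXA1 peak, against 17% of all. No gene list was tested.

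By role, the receptor-modifying glycosyltransferases had a siNS region of both libraries in 4 of 5 genes, led by the fringe gene LFNG with 5 regions, of which 1 had a siFOXA1 peak. The ligand ubiquitin ligases had one in 4 of 4, led by NEURL1B with 6, none with a siFOXA1 peak. The proteases that process the receptor had one in 6 of 9, led by the convertase FURIN with 4 and none, and the ligand-like genes DLK1, DLK2 and DNER in 3 of 3, led by DLK1 with 7 and none. The nuclear complex had one in 4 of 8 genes, led by the RBPJ-associated repressor SPEN with 6 and none. Of the 15 regions of that group, 5 had a siFOXA1 peak (33.3%, against 17% of all regions of both siNS libraries). They were 3 of 3 at RBPJ and 2 of 5 at MAML3, genes named after their values were seen. The target genes had one in 7 of 8, led by HES1 with 10 regions, of which 5 had a siFOXA1 peak. As a group they had 28 such regions, 6 with a siFOXA1 peak including those 5 (21.4%, against 17% of all). The inhibitors and turnover genes had one in 9 of 9, with at most 3 regions a gene. FBXW7, a ubiquitin ligase subunit that marks the Notch intracellular part for degradation, had 3 such regions, of which 2 had a siFOXA1 peak. LNX1, a ubiquitin ligase of the inhibitor NUMB, also had 3, of which 0 had one.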

How the data were processed

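TLE3 ChIP-seq peak lists of 4 libraries were used, 2 siNS and 2 siFOXA1; the 2 input libraries, labelled as MDA-MB-454, were not analysed here. The submitters' processing notes name hg38 and MACS2, BWA 0.7.5a, Trim Galore and SAMtools; the settings used with each were not given in the sources used here, nor was a use of the inputs. The authors deposited 1 list per library with a score per peak. Between lists, scores were compared only by their rank within each list, since their definition is not stated. Regions within a list were also compared by the score itself. Groups and replicate numbers came from the titles; the list of siFOXA1 2 carries another number in its name.

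Mitochondrial peaks (4, 3, 4 and 9 in siNS 1, siNS 2, siFOXA1 1 and siFOXA1 2) were left out. Genes came from RefSeq (GRCh38.p14, the chromosomes of hg38); a region overlapping several genes went to the one with the end nearest its centre. Strand was known only through the promoter table, which lacks DLL1 and DLL3, and exons and introns were not told apart. Depth is unknown, and binomial intervals cover counting error only. Merging and assignment, tested on simulated data, equalled bedtools 2.31.1 for 2565 of 2565 regions. Of 46 pathway genes all were matched, CIR1 through its older symbol to CIRSR. The members, lists, motifs and alternatives were chosen with earlier results of these data known. Named were all members, every region shared by the libraries of a group, the pathway gene of each role with the most siNS regions (LNX1, tied with FBXW7, was added), and the 3 genes most like NOTCH1 and JAG2; RBPJ and MAML3 were added after their values were seen. Python 3.11.15, pandas 2.3.3 and scipy 1.17.1 were used.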

Additional observations from a re-analysis of the deposited data

How the results depend on the processing

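Of 72 values under 12 alternatives, 58 stayed within 1.5 times the reported count or within the interval of the reported share. Keeping the upper-scoring part of each list, from its median on, left 26 regions, 18 of both siNS libraries, and 1 region of both siFOXA1 libraries at 1 gene. Lists of equal length left 18 regions, 9 of both siNS libraries, with a siFOXA1 peak in 55.6%. Regions inside gene spans numbered 40, with 17 of both siNS libraries. Leaving out each library in turn gave 43 to 68 regions, 28 to 60 of the remaining siNS libraries (60 without siNS 2), 10 to 17.9% with a siFOXA1 peak, 3 to 6 regions of the remaining siFOXA1 libraries (5 without siFOXA1 1 and 6 without siFOXA1 2) and 3 to 5 genes with one (5 without siFOXA1 2); fewer libraries then have to share a peak. The genes with a region of both siNS libraries numbered 6 to 9 throughout. Counting the regions that overlap NOTCH4 and DLL1 to these genes, an alternative added after the data were seen, gave 70 regions, 30 of both siNS libraries and 9 of 9 genes, with a siFOXA1 peak in 20%. No paired analysis was run, because no result comes from a test and equal replicate numbers alone do not pair the libraries. Without read counts, a missing peak cannot be told apart from one below the calling threshold of a library.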
